A study of Mus musculus with 19 samples.

Results

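Mitochondrial complex I, the NADH:ubiquinone oxidoreductase, is described here through the genes of its nuclear-encoded subunits in microglia-enriched brain homogenate. Members were the protein-coding genes with a GENCODE M21 symbol of the Ndufa, Ndufab, Ndufb, Ndufc, Ndufs or Ndufv series whose normalized count reached 10 in 3 or more libraries. All 38 such genes of the 49671 in the table passed that filter. By structure, 3 are core subunits of NADH oxidation, 4 are core subunits of quinone reduction, 9 are accessory subunits of the matrix arm, 9 of the proximal membrane arm and 11 of the distal membrane arm. The other 2, Ndufa4 and Ndufa4l2, carry the name only: the Ndufa4 protein belongs to cytochrome c oxidase, and Ndufa4l2 is its hypoxia-inducible paralogue. The text compares the 4 groups of mice, HEM and WT at 13 and at 3 months of age.

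HEM mice overexpressed full-length human wild-type α-synuclein, a presynaptic protein that aggregates in Parkinson disease, from a transgene on the X chromosome under the murine Thy-1 promoter, which is active mainly in neurons. WT mice were their controls, and all groups shared the B6D2F1/J background. Each mouse gave 1 RNA-seq library, 8 from HEM and 4 from WT at 13 months, and 4 from HEM and 3 from WT at 3 months. The labels do not give the sex. The Y-linked gene Ddx3y had normalized counts of 7078 to 10109 in the 19 libraries, and Xist had 6.37 to 77.4.

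Complex I takes electrons from NADH in the mitochondrial matrix, passes them along a chain of iron-sulfur clusters in its matrix arm to ubiquinone, and pumps protons through its membrane arm. The core subunits carry the catalysis, and the accessory subunits surround and stabilise them. The membrane arm also holds the ND subunits, which the mitochondrial genome encodes, so assembly needs products of both genomes. Inhibition of complex I by toxins such as MPP+ or rotenone can cause parkinsonism, which is why the complex is much studied in work on α-synuclein.

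Values are normalized counts, reads in a gene divided by 1 size factor per library. Depth ranged from 63.3 to 95.8 M reads in HEM and from 93.2 to 124.5 M in WT at 13 months, and from 74.7 to 112.9 M in HEM and from 83.0 to 106.8 M in WT at 3 months, in reads that may count both mates of a pair. Fold changes are on the log2(normalized count + 1) scale with standard errors (SE), and p-values from limma-trend were adjusted by the Benjamini-Hochberg method across the 23973 genes tested. Genes under 0.05 on that scale are the ones called lower or higher. Of the 12 microglia markers none was called between HEM and WT at 13 months by limma at that threshold, and 0 had an unadjusted p under 0.05. Their median log2 fold change was -0.24, with 11 of the 12 below 0 and 1 above. Their mean log2 level ranged from 15.00 to 16.41 in HEM and from 15.42 to 16.16 in WT at 13 months. HEM replicate 1 at 13 months and HEM replicate 3 at 3 months had the highest scores on the first principal component, 130.35 and 68.43, against -63.22 to 33.01 in the other 17 libraries. Thy1, the gene of the promoter, was at 5205 to 37356 in HEM and 2362 to 7909 in WT at 13 months, and at 18307 to 51370 in HEM and 3367 to 10886 in WT at 3 months.

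At 13 months, 36 of the 38 genes were lower in HEM than in WT and 0 were higher, where 7.3% of all tested genes were called lower and 4.87% higher. The median log2 fold change of the 38 was -0.53, against 0.03 over all tested genes, and 37 of the 38 were below 0. At an unadjusted p under 0.05 there were 37 of the 38, against 24.9% of all tested genes. At 18 genes each of the 4 WT libraries exceeded each of the 8 HEM libraries, and over all tested genes 3.98% were separated in that direction. The mean log2 level of the 38 genes was 12.37 ± 0.14 (SD, n = 8) in HEM and 12.89 ± 0.18 (n = 4) in WT at 13 months. It was 12.43 ± 0.01 (n = 4) in HEM and 12.45 ± 0.16 (n = 3) in WT at 3 months, so WT at 13 months was the group that stood above the other 3. The mean was highest in WT at 13 months at 37 of the 38 genes. Below, fell and rose mean lower and higher in HEM than in WT of the same age, and not a change over time. In a bulk preparation, fewer cells of a type and less RNA per cell cannot be told apart.

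**Figure D1:**
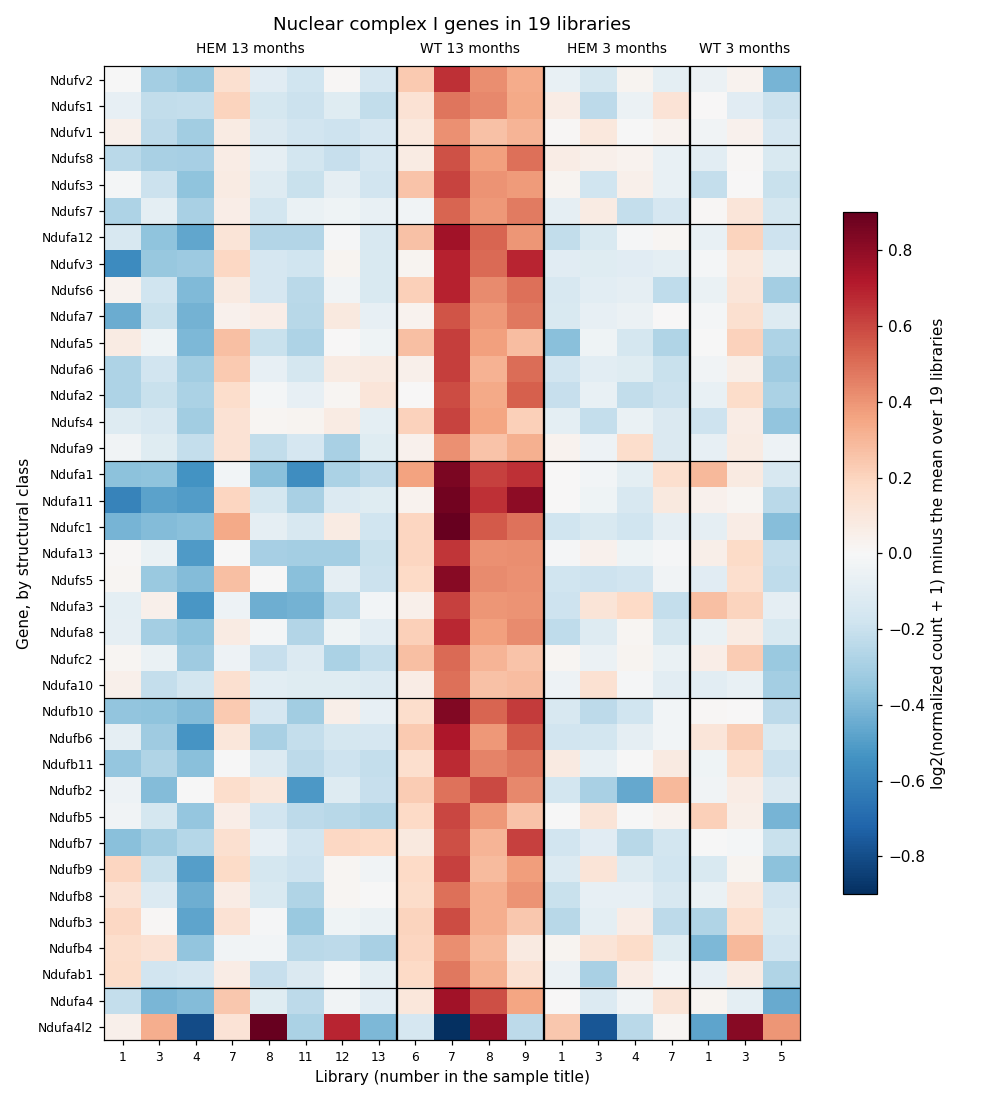
Each row is a gene, 37 of the 38 being drawn, grouped by structural class with black lines between classes, and each column is 1 of the 19 libraries; colour gives log2(normalized count + 1) minus the gene's mean over the libraries. The 4 WT libraries at 13 months are mostly red, replicate 7 the most and replicate 6 the least, and the bottom row, Ndufa4l2, does not follow the others.

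The core subunits of NADH oxidation were all lower in HEM than in WT at 13 months. Ndufv1, which holds the flavin that accepts electrons from NADH, had counts of 11384, 14115, 12789 and 13148 in WT at 13 months, and in HEM a lowest of 8582, a median of 9510 and a highest of 11206. All WT libraries lay above all HEM libraries, with WT replicate 6 only just above the highest HEM library. The log2 fold change was -0.40 ± 0.08 (SE; adjusted p = 0.00324, limma). Ndufv2, an iron-sulfur partner of Ndufv1, had 8910, 11958, 10130 and 9568 in WT, and 5978, 6941 and 8385 as lowest, median and highest in HEM. Its groups did not overlap either, and the log2 fold change was -0.53 ± 0.10 (adjusted p = 0.00336, limma). Ndufs1, the largest subunit of the complex, fell by 0.47 ± 0.09 on the log2 scale (adjusted p = 0.00329, limma), with means of 7209 ± 769 (SD, n = 8) in HEM and 9988 ± 1041 (n = 4) in WT.

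The 4 core subunits of quinone reduction were all lower in HEM at 13 months, with a median log2 fold change of -0.54. Ndufs3, a core subunit of the matrix arm, had the smallest p of the 7 core genes. It is ENSMUSG00000005510, on mm10 chromosome 2 from 90894634 to 90904827 on the minus strand. Its counts were 7432, 9519, 8249 and 8142 in WT, and 4850, 5640 and 6563 as lowest, median and highest in HEM. The lowest WT library exceeded the highest HEM library, and the log2 fold change was -0.55 ± 0.08 (adjusted p = 0.00176, limma). Ndufs8, which carries iron-sulfur clusters near the quinone site, fell by 0.55 ± 0.09 (adjusted p = 0.00185, limma) and was also separated. Ndufs7, which carries the last iron-sulfur cluster before ubiquinone, fell by 0.45 ± 0.10 (adjusted p = 0.00579, limma), and its lowest WT library, 9548, lay below the highest HEM library, 10156.

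**Figure D2:**
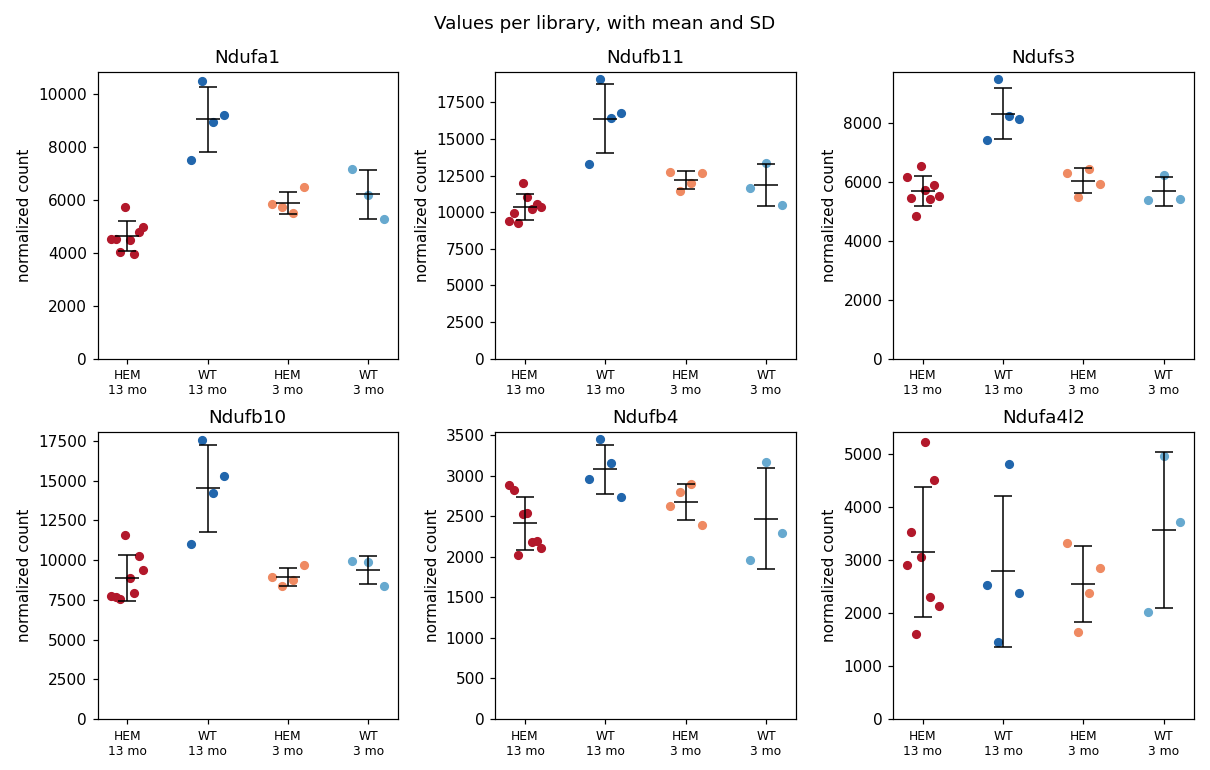
Points are the normalized counts of 6 genes in each library, by group, with the mean and SD drawn as a bar and whiskers; every axis starts at 0. At Ndufa1, Ndufb11 and Ndufs3 the 4 WT libraries at 13 months lie above all 8 HEM libraries, while at Ndufb10, Ndufb4 and Ndufa4l2 the groups overlap.

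In the matrix arm, all 9 accessory genes were lower in HEM than in WT at 13 months. Their median log2 fold change was -0.46, with a range from -0.68 to -0.38. Ndufa12, a paralogue of the assembly factor Ndufaf2, had counts of 7395, 10428, 8894 and 8140 in WT, and 4468, 5366 and 6673 as lowest, median and highest in HEM. Those groups did not overlap, and the log2 fold change was -0.68 ± 0.11 (adjusted p = 0.00192, limma). Ndufs6, a zinc-binding subunit added late in assembly, fell by 0.59 ± 0.10 (adjusted p = 0.00213, limma), from a mean of 5180 ± 705 (SD, n = 4) in WT to 3442 ± 364 (n = 8) in HEM. Ndufv3 fell by 0.67 ± 0.13 (adjusted p = 0.00311, limma) with overlapping groups. Ndufa5 fell by 0.46 ± 0.12 (adjusted p = 0.0148, limma).

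The proximal membrane arm held the largest falls. All 9 of its genes were lower in HEM at 13 months, with a median log2 fold change of -0.60. Ndufa1, a small membrane subunit needed for assembly of the complex, had the smallest p of all 23973 tested genes in this comparison. It is ENSMUSG00000016427, on mm10 chromosome X from 37187588 to 37191163 on the minus strand. Its counts were 7523, 10518, 8966 and 9210 in WT, and 3972, 4529 and 5734 as lowest, median and highest in HEM. The highest HEM library lay below the lowest WT library, and the log2 fold change was -0.97 ± 0.10 (adjusted p = 0.000554, limma), 1.95-fold lower. Per kilobase of exon, Ndufa1 was also the highest of the 38 genes in WT at 13 months, at 21609 normalized counts per kilobase, where the lowest, Ndufb2, was at 286.

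Ndufa11, a membrane subunit that contacts complex III in the respiratory supercomplex, had the next largest fall. It lies on mm10 chromosome 17 from 56717767 to 56722141 on the plus strand. WT libraries at 13 months had 7166, 12783, 11044 and 12257, and HEM libraries had a lowest of 4632, a median of 6002 and a highest of 8021. WT replicate 6 lay inside the HEM range and the other 3 WT libraries above it. The log2 fold change was -0.85 ± 0.15 (adjusted p = 0.00237, limma). Ndufa13, known also as Grim-19, fell by 0.63 ± 0.10 (adjusted p = 0.00194, limma), without overlap. Some 30.0% of its exon bases are shared with Tssk6, so its count may hold reads of that gene. Ndufa10 fell by 0.35 ± 0.08 (adjusted p = 0.00984, limma), the smallest fall of this arm.

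In the distal membrane arm, 10 of 11 accessory genes were called lower in HEM than in WT at 13 months. The median log2 fold change of the 11 was -0.48. Ndufb11, on mm10 chromosome X from 20615326 to 20617619 on the minus strand, had 13312, 19079, 16400 and 16733 in WT, and 9271, 10288 and 11967 as lowest, median and highest in HEM. The groups were separate, and the log2 fold change was -0.66 ± 0.09 (adjusted p = 0.00147, limma). Of the exon bases of Ndufb11, 12.9% are shared with Rbm10, so its count may hold reads of that gene. Ndufb10 had the largest fall of this arm, -0.71 ± 0.12 (adjusted p = 0.00238, limma). Its counts were 11015, 17554, 14203 and 15284 in WT and reached 11606 in HEM replicate 7, so the groups overlapped at 1 library each. Ndufb6 fell by 0.68 ± 0.11 (adjusted p = 0.00185, limma), and 39.0% of its exon bases are shared with Smim27.

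Ndufa1 and Ndufb11 are the X-linked genes among the 38, and the transgene is X-linked too. Of 585 tested protein-coding genes on the X chromosome, 76 were lower and 28 higher in HEM at 13 months, with a median log2 fold change of -0.05. The share lower was 13.0%, against 7.3% of all tested genes and 14.3% of tested genes in the same range of mean level as the 38. Those 2 sets are not limited to protein-coding genes.

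Ndufb4, in the distal membrane arm, and Ndufa4l2 were the 2 genes that were not called. Ndufb4 had 2956, 3455, 3157 and 2739 in WT at 13 months, and 2020, 2359 and 2885 as lowest, median and highest in HEM. HEM replicates 1 and 3 and WT replicate 9 made the groups overlap, and the log2 fold change was -0.36 ± 0.12 (adjusted p = 0.0633, limma; 0.0480 with DESeq2). Ndufa4l2 had 2525, 1446, 4806 and 2386 in WT, and 1607, 2980 and 5221 in HEM. Its spread was the widest of the 38 genes in every group, with a coefficient of variation of 27.9% to 51.1%. The log2 fold change was 0.22 ± 0.33 (adjusted p = 0.767, limma), and it became -0.055 without WT replicate 7. Ndufa4, the cytochrome c oxidase subunit, fell by 0.60 ± 0.13 (adjusted p = 0.00524, limma).

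**Figure D3:**
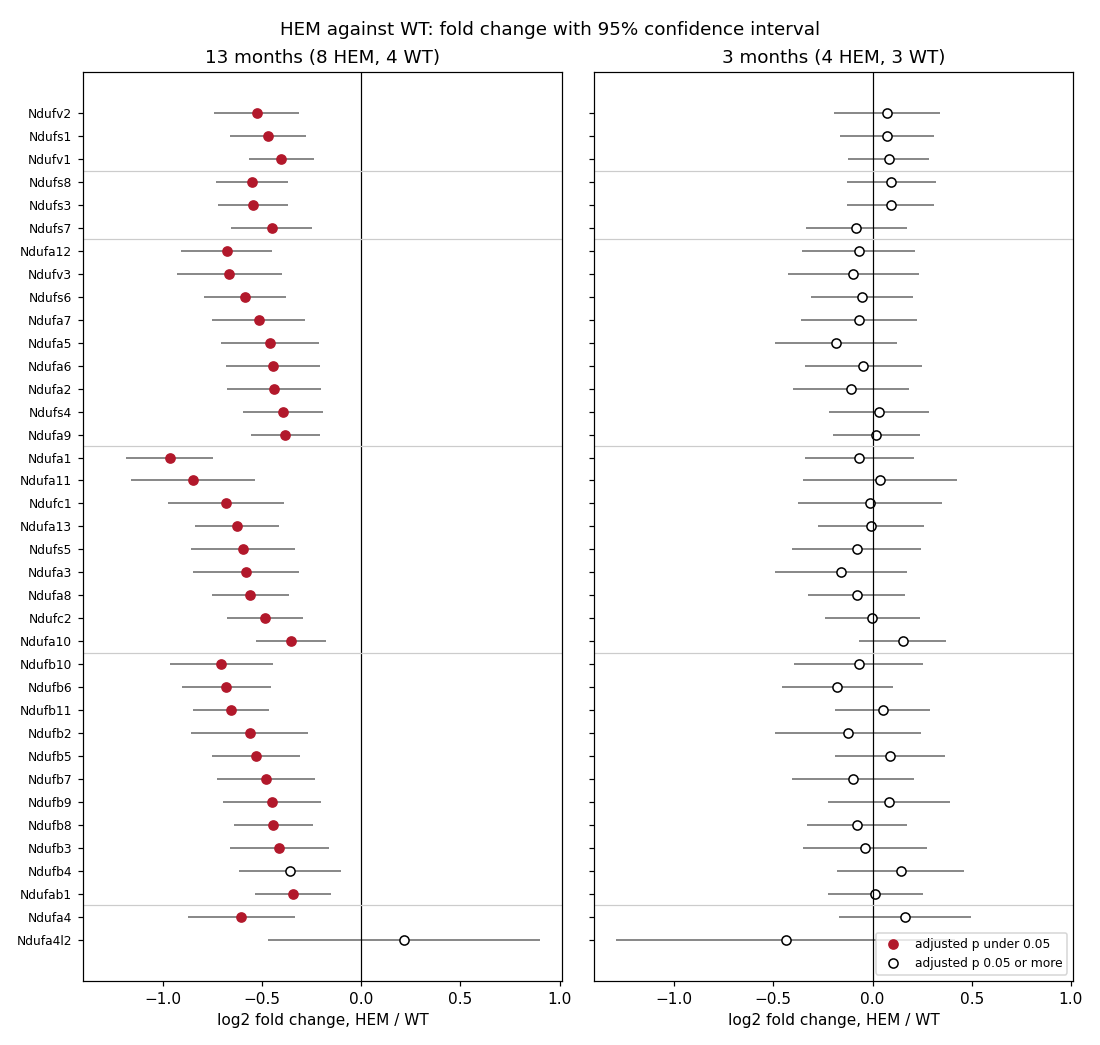
Points are log2 fold changes of HEM over WT for 37 of the 38 genes, at 13 months on the left and 3 months on the right, with 95% confidence intervals as lines; filled points passed the adjusted p threshold of 0.05. At 13 months 35 points are filled and lie left of 0, and at 3 months none is filled.

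Individual libraries weighed on the size of these falls. WT replicate 7 at 13 months had the highest count of all 19 libraries at 34 of the 38 genes, and WT replicate 6 the lowest of its group at 34. With replicate 6 set aside, the other 3 WT libraries exceeded every HEM library at 35 of the 38 genes. HEM replicate 7 was the highest of the 8 HEM libraries at 27 genes and HEM replicate 4 the lowest at 26. Without WT replicate 7, 27 of the 38 genes and 4.02% of all tested genes were called lower by limma. The median log2 fold change of the 38 was then -0.45. With any other library left out, 31 to 37 were called lower, with 4.55% to 8.13% of all tested genes. HEM replicates 1 and 11 at 13 months and HEM replicate 3 at 3 months were also left out together, as libraries taken to stand apart. On the first principal component replicate 11 was at -7.92, inside the range of the other libraries. Without these 3 libraries, 36 of the 38 genes were called lower. Of all tested genes 6.15% were called lower in that fit.

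The mean level of marker genes of other cell types also differed between these groups. The choroid plexus, the epithelium that makes cerebrospinal fluid, is rich in mitochondria. Of its 8 markers, 7 were called lower in HEM at 13 months, and their mean log2 level was 14.12 to 15.19 in HEM and 15.33 to 15.74 in WT. The extreme libraries were partly the same: HEM replicate 7 was the highest HEM library for both the choroid markers and the 38 genes (12.62), and WT replicate 6 the lowest WT library for both (12.64). HEM replicate 4, the lowest for the 38 genes at 12.14, was at 14.89 for the choroid markers. All 9 neutrophil markers were called higher in HEM, with a mean log2 level of 11.96 to 15.33 in HEM and 10.84 to 12.42 in WT. Erythroid markers were higher at 2 of 7, at 14.06 to 15.56 in HEM and 13.06 to 14.27 in WT. HEM replicate 7 had the lowest erythroid level in HEM, but HEM replicate 3 the lowest neutrophil level. WT replicate 6 had the highest neutrophil and erythroid levels in WT. In HEM at 3 months the choroid level was 14.65 to 15.63, and that of the 38 genes 12.42 to 12.45. In WT at 3 months replicate 5 was the lowest for both. No marker of these 3 lists was at 0 in any library.

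With the choroid plexus level as a covariate, 0 of the 38 genes were called by limma, 0 of all tested genes were called, 26 of the 38 had an unadjusted p under 0.05 and the median log2 fold change was -0.38. With the neutrophil and erythroid level as a covariate, 0 were called by limma, again with 0 of all tested genes. In that fit 29 had an unadjusted p under 0.05 and the median was -0.40. The share of all tested genes at that unadjusted p is not given for these fits, so the counts of 26 and 29 have no background beside them. Ndufa1 was at -0.71 and -0.80 in those fits (adjusted p = 0.340 and 0.543, limma). Because the marker levels differ between the groups, their part and that of the genotype cannot be told apart at 13 months.

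**Figure D4:**
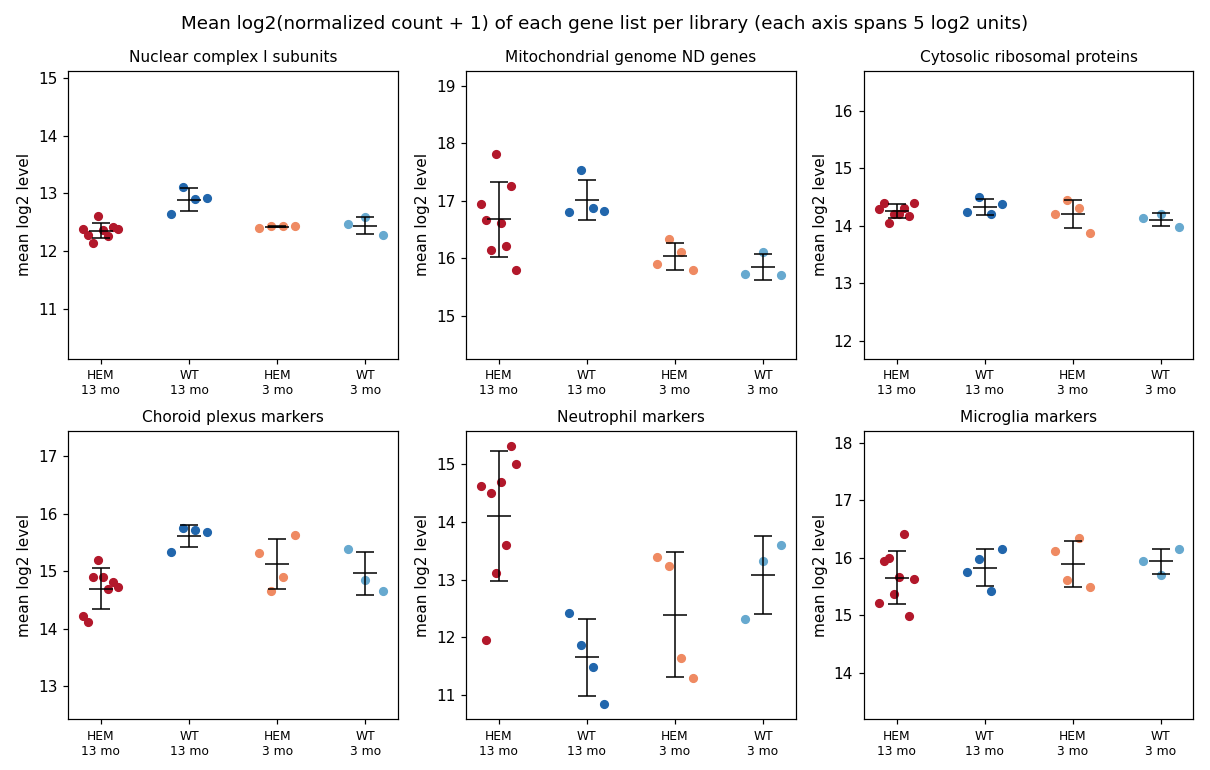
Points are the mean log2(normalized count + 1) of 6 gene lists in each library, by group, with mean and SD; each axis spans 5 log2 units. Nuclear complex I subunits and choroid plexus markers are highest on average in WT at 13 months, neutrophil markers are highest on average in HEM at 13 months, and cytosolic ribosomal proteins and microglia markers overlap in all groups.

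At 3 months, 0 of the 38 genes were called between HEM and WT by limma, and 0% of all tested genes were called in either direction. At an unadjusted p under 0.05 there were 0 of the 38, against 3.85% of all tested genes, and DESeq2 called 0. The median log2 fold change was -0.02, with 22 genes below 0 and 16 above. The 3 smallest p-values belonged to Ndufa10, at 0.15 (95% confidence interval -0.07 to 0.37), Ndufb6, at -0.18 (-0.46 to 0.10), and Ndufa5, at -0.18 (-0.49 to 0.12). Ndufa1 had counts of 5857, 5740, 5506 and 6487 in HEM and 7165, 6182 and 5284 in WT at 3 months. The HEM libraries lay within the WT range, and the log2 fold change was -0.07 (-0.34 to 0.21). Ndufs3 was at 0.09 (-0.13 to 0.31). The intervals of Ndufa1 and Ndufs3 at 3 months thus exclude a fall as large as their estimates at 13 months. Marker levels differed here too: the 8 neuron markers had a median log2 fold change of 1.16, all above 0. The 9 neutrophil markers were at -0.65 and the 7 erythroid markers at -0.38, all below 0. Choroid plexus markers were at 0.15, with 7 of 8 above 0. None of these was called by limma. With the neutrophil and erythroid covariate the median of the 38 was -0.08, and with the choroid plexus covariate -0.05. The part of the neuron markers was not tested.

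The difference between the genotype effects at the 2 ages had a median log2 value of -0.50 over the 38 genes. By limma 0 of them were called and 0 of all genes, and 31 of the 38 had an unadjusted p under 0.05, against 14.8% of all tested genes. The smallest p-values were those of Ndufa1 at -0.90 ± 0.17, Ndufb11 at -0.71 ± 0.15 and Ndufs3 at -0.64 ± 0.13, each with an adjusted p of 0.0742 (limma). DESeq2 and limma voom each called 17 of the 38 lower, with 2.35% and 2.26% of all tested genes lower in those fits, and edgeR called 0. DESeq2 gave no adjusted p for 6516 of the 23973 genes, which stay in the base of its 2.35%. Without HEM replicate 7 at 13 months limma called 9, with 1.03% of all tested genes lower, and without WT replicate 6 at 13 months it called 11, with 0.959% lower. For the same difference no choroid plexus, neutrophil or erythroid marker was called by limma: choroid plexus markers had a median of -1.13, with 7 of 8 at an unadjusted p under 0.05, neutrophil markers 2.79, with 9 of 9, and erythroid markers 1.42, with 4 of 7. With the neutrophil and erythroid level as a covariate, 5 of the 38 genes had an unadjusted p under 0.05 and the median was -0.36, and with the choroid plexus level 14 did and the median was -0.36. For the covariate fits the share of all tested genes at that unadjusted p is not given. The part of the markers in the difference was not tested beyond these fits.

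In WT, 37 of the 38 genes had a positive log2 fold change between 3 and 13 months, with a median of 0.45 against -0.01 over all tested genes. By limma 3 of the 38 were called higher and 0 lower, where 0.463% and 0.246% of all tested genes were, and 36 had an unadjusted p under 0.05, against 15.5%. The 3 were Ndufs3 (0.55 ± 0.10, adjusted p = 0.0252), Ndufs6 (0.54 ± 0.12, adjusted p = 0.0483) and Ndufv2 (0.56 ± 0.13, adjusted p = 0.0496). At Ndufs3 the WT libraries had 5383, 6258 and 5428 at 3 months, below all 4 at 13 months. At 25 genes all 4 libraries at 13 months exceeded the 3 at 3 months, where 8.83% of tested genes were separated that way. This count of calls depended on the libraries and the method, and so did the count over all tested genes, which was 170 here. DESeq2 called 25 of the 38 and 1219 of all genes, limma voom 32 and 1255, and edgeR 1 and 101. With 1 library left out, limma called 0 to 21 of the 38 and 0 to 523 of all genes. It called 0 of the 38 without any 1 of the 3 WT libraries at 3 months or without WT replicate 7 or 9 at 13 months, fits in which 0 to 4 of all genes were called. Without HEM replicate 7 at 13 months it called 14 of the 38 and 468 of all genes, and without WT replicate 6 at 13 months 21 and 523.

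The marker lists of other cell types were compared in WT in the same way. Between 3 and 13 months the 8 choroid plexus markers had a median log2 fold change of 0.60, all above 0 and 4 at an unadjusted p under 0.05. The 5 endothelial markers had a median of -1.15, the 9 neutrophil markers -1.17 and the 7 erythroid markers -1.17, all below 0, with 4, 3 and 5 at an unadjusted p under 0.05. None of these markers was called by limma. With the choroid plexus level as a covariate, 0 of the 38 genes were called and 24 had an unadjusted p under 0.05, with a median of 0.35. With the neutrophil and erythroid level, 0 were called and 22 had an unadjusted p under 0.05, with a median of 0.36, and those fits called 2 and 0 of all tested genes. For those fits the share of all tested genes at that unadjusted p is not given. The part of the endothelial markers was not tested.

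In HEM, 0 of the 38 genes were called between 3 and 13 months by limma, where 1.62% of all tested genes were called in either direction. The median log2 fold change was -0.08, 4 genes had an unadjusted p under 0.05, against 16.6% of all tested genes, and DESeq2 called 1, with 1302 of all tested genes. Ndufa1 had the smallest p, at -0.35 ± 0.10 (adjusted p = 0.0904, limma), followed by Ndufb11 at -0.24 ± 0.09 and Ndufs8 at -0.19 ± 0.09. Mean marker levels in HEM at 3 and 13 months were 12.39 and 14.10 for neutrophil and 14.42 and 14.97 for erythroid markers. For choroid plexus markers they were 15.12 and 14.69, and for endothelial markers 15.24 and 14.22. With the neutrophil and erythroid covariate the median of the 38 was 0.01, and with the choroid plexus covariate 0.02. The part of the endothelial markers in HEM was not tested. The HEM and WT comparisons at 13 months and the age comparisons share libraries, so their values stand side by side and are not independent.

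The ND genes of the mitochondrial genome encode the core of the membrane arm. At 13 months 0 of the 7 were called between HEM and WT by limma, and 0 had an unadjusted p under 0.05. Their median log2 fold change was -0.42, from -0.54 (mt-Nd1) to -0.01 (mt-Nd3). Their mean log2 level was 15.80 to 17.81 in HEM and 16.80 to 17.53 in WT at 13 months, so the HEM range enclosed that of WT. Between 3 and 13 months the median was 1.15 in WT and 0.58 in HEM, with 7 and 3 of 7 at an unadjusted p under 0.05 and 0 called by limma.

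Assembly factors build the complex and are not part of it once finished. At 13 months 9 of 19 were lower in HEM and 0 higher, with a median of -0.34. Nubpl, which delivers iron-sulfur clusters to complex I, fell by 0.54 ± 0.12 (adjusted p = 0.00611, limma), and Tmem126b, of the membrane assembly complex, by 0.34 ± 0.08 (adjusted p = 0.00954, limma).

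Other nuclear-encoded respiratory complexes were also lower in HEM at 13 months. All 4 tested genes of complex II, all 9 of complex III, all 10 of complex IV and all 16 of complex V were called lower, with medians of -0.52, -0.66, -0.64 and -0.67. Atp5g1, a c-subunit gene of ATP synthase, fell by 1.18 ± 0.17 (adjusted p = 0.00160, limma). Of 77 mitochondrial ribosomal protein genes 37 were lower, with a median of -0.29, and of 14 genes of the outer membrane, import machinery and matrix 6 were lower, with a median of -0.25. Of 78 cytosolic ribosomal protein genes 1 was lower, with a median of -0.09. Among the 9208 tested genes in the same range of mean level as the 38, 1319 were lower and 475 higher, with a median of -0.04.

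Of 15 regulators of mitochondrial biogenesis, 4 were called lower and 1 higher in HEM than in WT at 13 months. The median log2 fold change of the 15 was -0.03, with 8 below 0 and 7 above, so the list as a whole showed no shift. Esrra and Esrrg, nuclear receptors that bind promoters of respiratory genes, fell by 0.42 ± 0.09 and 0.79 ± 0.18 (adjusted p = 0.00468 and 0.00741, limma). The coactivator Ppargc1a fell by 0.50 ± 0.15 (adjusted p = 0.0385, limma) and Tfb2m by 0.31 ± 0.09 (adjusted p = 0.0397, limma). Nrf1, a transcription factor of respiratory genes, rose by 0.25 ± 0.07 (adjusted p = 0.0327, limma). Ppargc1a, Tfb2m and Nrf1 are given here to complete the count of 5, after their values were seen.

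Since the genes moved together, their promoters were read for the letters that known regulators of respiratory genes bind. RefSeq (GRCm38.p6) gave a window of 250 bases before to 50 after the start for 33 of the 38 genes. The letters searched, on both strands, were GCATGCGC for NRF1, CCGGAAG for the ETS factor GABP, AAGATGGC for YY1 and CAAGGTCA for the estrogen-related receptors. NRF1 letters were in 3 of 33 windows, 9.09%, against 3.05% of 27025 genes and 5.0% of 13129 tested protein-coding genes. GABP letters were in 4, 12.1%, against 9.93% and 16.3%, and the receptor letters in 1, 3.03%, against 1.76% and 1.41%. In the 250 bases before the start alone, the members had a median of 15 CG dinucleotides. The median was 6 over all 32851 windows, of tested and untested genes alike.

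Ndufa11, with the second-largest fall, is 1 of the 3 genes with NRF1 letters. Its 250 bases before the start, GRCm38.p6 chr17:56717512-56717761 on the plus strand, are printed to show a palindromic match on both strands, in capitals, 5′ to 3′:
Ndufa11: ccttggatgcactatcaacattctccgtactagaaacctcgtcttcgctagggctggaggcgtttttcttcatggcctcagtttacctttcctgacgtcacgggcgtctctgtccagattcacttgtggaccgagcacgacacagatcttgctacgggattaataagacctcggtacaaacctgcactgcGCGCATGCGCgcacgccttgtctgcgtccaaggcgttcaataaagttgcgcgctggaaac
The other 2 genes with NRF1 letters, Ndufa6 and Ndufa8, fell by 0.45 ± 0.11 and 0.56 ± 0.09 (adjusted p = 0.0140 and 0.00213, limma), on either side of the median of the 38.

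The YY1 letters were in 7 of 33 windows, 21.2%, against 3.19% of all genes and 4.28% of tested protein-coding genes. All 7 lay on the gene's own strand within the 50 bases after the start, and 0 of 33 had them in the 250 bases before it. The letters hold an ATG, and at all 7 genes that ATG was the annotated start codon. Windows of 26 bases, with the searched letters in capitals, show this shared sequence around the start codon in the 5 genes where the letters have 9 bases on either side within the RefSeq window, on GRCm38.p6:
Ndufa3: gccaagaacAAGATGGCcgggagtaa
Ndufa9: ttgtgggagAAGATGGCggccgccgt
Ndufc1: ctgcggaacAAGATGGCgccgtccgt
Ndufs6: gtcaccggcAAGATGGCggcggtgct
Ndufs7: gccgaggccAAGATGGCggcgctggc
The other 2 are Ndufb8 and Ndufs4. A match describes these letters only and shows no binding, and letters around a start codon also serve translation. The 7 genes had log2 fold changes from -0.68 (Ndufc1) to -0.38 (Ndufa9) at 13 months, inside the range of the other genes.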

How the data were processed

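RNA-seq libraries of 19 mice were compared. Per the labels' protocols, RNA came from an AllPrep column kit and libraries from NEBNext Ultra II RNA. The mouse build mm10 and the tools HISAT2, Trimmomatic, DESeq2 and featureCounts are named per the submitters' processing notes; versions, annotation and strand setting are not given in the sources used here. What the authors deposited is a signal, the count of each gene over a size factor of its library: 100% of values came out as whole reads at a tolerance of 0.01. Even counts made up 61.0% to 67.2% of the counts from 1 to 20 reads, as would follow if both mates of a pair were counted; the depths would then be up to 2 times the number of fragments. The strand setting being unknown, reads of overlapping genes cannot be told apart, and 6 members share over 10% of their exon bases with another gene.

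Genes reaching 10 in 3 or more libraries were tested with robust limma-trend (version 3.58.1 under R 4.3.3), after log2(value + 1), with 4 groups in 1 model; fold changes of low genes are understated. The p-values are two-sided. Since the labels do not say how mice were bred or batched, they measure the spread between these mice. The members and lists were chosen with earlier results of these data known. Named were the core subunits, Ndufa4, Ndufa4l2, X-linked members, the 2 smallest p and 2 largest changes of each class at 13 months, the 3 smallest p of the other comparisons, members of opposite sign, and 2 called genes of each other list; other list genes are given where they help. Values of 1 member and 1 marker are not reported here by name; both stay in the counts. Alternatives were edgeR 4.0.16, DESeq2 1.42.0 and limma voom on recovered reads, scaling, pseudocounts of 0.5 and 10, filters, the 2 compared groups alone, a replicate block, marker covariates, a length and GC trend, and each library left out. Lists also covered neuron, astrocyte, oligodendrocyte and endothelial markers and proteasome subunits. At 13 months 0 of 8, 1 of 6, 0 of 6 and 0 of 5 markers and 8 of 19 proteasome genes were called lower, and 0 higher. The fitting step was tested on simulated data.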

Additional observations from a re-analysis of the deposited data

Results flagged for a closer look

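Ndufs1, the largest core subunit, stood apart in 1 library. HEM replicate 7 at 13 months had a normalized count of 8991, against 6698 to 7439 in the other 7 HEM libraries of that age, a gap larger than Dixon's 95% critical value allows. It lay between the lowest WT library, 8552, and the highest, 10916. This was 1 of 63 groups of values examined, and chance alone flags about 1 in 20.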

How the results depend on the processing

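At 13 months, the count of members called lower (36) was 35 to 37 with edgeR, DESeq2, limma voom, TMM scaling, other pseudocounts and filters, the compared groups alone, the length and GC trend removed, or 3 libraries left out. In those fits 3.3% to 10.4% of the genes tested in each were called lower. With 1 library left out the count of members was 27 to 37, with 4.02% to 8.13% of all tested genes lower. It was 0 with the neutrophil and erythroid covariate, 0 with the choroid plexus covariate and 0 with the replicate block. In these 3 fits 0 of all genes were called. The 19 named members called at 13 months lost their call in each of those 3 fits, with an unchanged direction; without WT replicate 7 at 13 months, Ndufa10 and Ndufa5 lost theirs, and Ndufa4l2, at 0.22 with all libraries, ranged from -0.055 without that library to 0.52 without WT replicate 8.

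For the age effect in WT (3 members called, and 170 of all genes) the count of members, with that of all genes in parentheses, was 1 with edgeR (101), 25 with DESeq2 (1219), 32 with limma voom (1255), 1 with a pseudocount of 10 (151), 1 with no low filter (79), 9 with a filter at 50 (292), 0 with the 2 groups alone (77), 0 with the replicate block (0), 0 with the neutrophil and erythroid covariate (0), 0 with the choroid plexus covariate (2) and 7 with the length and GC trend removed (217). It was 1 without the 3 libraries (256) and 0 to 21 with 1 left out (0 to 523). For the age effect in HEM (0 called) DESeq2, limma voom and the length and GC trend gave 1 each (1302, 1466 and 332), and leaving out 1 library gave 0 (62 to 648). For the difference between the ages (0 called) DESeq2 and limma voom gave 17 each (938 and 794), and leaving out 1 library gave 0 to 11 (0 to 313). The members at an unadjusted p under 0.05, 31 there, were 17 with the replicate block. For that fit the share of all tested genes at that p is not given. At 3 months the count of members called was 0 in every alternative. The cause of these shifts was not tested.

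Replicate numbers in the labels were not taken to pair the samples. Same-numbered libraries of different groups correlated from -0.07 to 0.17 in their deviations from the group means (11 pairs), and differently numbered ones from -0.20 to 0.26 (117 pairs). At 13 months the HEM and WT libraries numbered 7 and those numbered 8 correlated at 0.11 and 0.13. These values do not settle whether the numbers pair any mice. The replicate block took the count at 13 months from 36 to 0, with a median log2 fold change of -0.57. Libraries whose number occurs once, such as WT replicates 6 and 9 at 13 months, add nothing to a group comparison in that fit.

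The share of promoters with YY1 letters was 21.2% with the 50 bases after the start and 0% in the 250 bases before it. No member was near the depth limit, the lowest group mean being 1086 normalized counts (Ndufb2 in HEM at 3 months). Precision is limited by the number of libraries, 3 or 4 in WT.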
